A study of Mus musculus with 31 samples.

Results

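Retinol, or vitamin A, is stored in the liver as retinyl esters, carried to other tissues in plasma by retinol-binding protein, and oxidised first to retinal and then to retinoic acid, which acts through nuclear receptors. The first step is reversible and is carried out by short-chain dehydrogenases of the Rdh family and by alcohol dehydrogenases, and the second by retinaldehyde dehydrogenases. Of the genes of this pathway, 9 of the 31172 gene symbols measured, were followed in the liver of mice: the dehydrogenases *Rdh16*, *Rdh7*, *Rdh9*, *Rdh10* and *Rdh11*, the alcohol dehydrogenase *Adh1*, the retinaldehyde dehydrogenase *Aldh1a1*, the plasma carrier *Rbp4* and the ester-forming enzyme *Lrat*. They were chosen by their symbols, with the fall of *Rdh16* in mice given *Upf3b*-GalNAc-ASO at 10 mg/kg already known from these data. Values from these 10 mg/kg mice are therefore given as a description. Counts of calls there are printed only beside the share of all genes called and support nothing, and the tests of the 9 genes rest on mice given 20 mg/kg and on the sexes of DPBS-treated mice.

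The livers came from 31 adult *hFIX-R29X* mice, which carry a human factor IX minigene with a premature stop codon, driven by the human transthyretin promoter, and lack the mouse gene *F9*; all 5 groups share this background. The vehicle DPBS was given to 11 mice (6 female, 5 male). Control-GalNAc-ASO was given at 15 mg/kg to 2 females and 2 males and at 20 mg/kg to 3 of each sex. *Upf3b*-GalNAc-ASO was given at 10 mg/kg to 2 females and 3 males, and at 20 mg/kg to as many others. An antisense oligonucleotide (ASO) pairs with an RNA and leads RNase H1 to cut it, GalNAc is a sugar that directs the ASO to hepatocytes, and Upf3b is a factor of nonsense-mediated mRNA decay (NMD), the pathway that degrades mRNAs with premature stop codons. Each mouse received 6 subcutaneous doses, 5 days apart, and the liver was taken 48 h after the last.

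RNA was measured by sequencing, 1 library per mouse, and is given as TPM, an abundance scaled to the same total in every library. The libraries held between 1020676 and 7391615 reads, with a median of 3627941. A floor of 3 reads corresponded to between 0.406 and 2.94 TPM. The library with the fewest reads was replicate 3 of *Upf3b*-GalNAc-ASO at 10 mg/kg, whose expression also correlated least with its group. Genes whose median reached 5 TPM in either group entered a limma model of log2(TPM + 1) that also held sex. A gene is called where its Benjamini-Hochberg adjusted p over all genes tested is under 0.05. Differences below are on this log2 scale, first group minus second. In whole liver, fewer cells of a type and less RNA per cell cannot be told apart.

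*Upf3b*, on the X chromosome from 37091678 to 37110322 of GRCm38, was checked first. The 5 mice given *Upf3b*-GalNAc-ASO at 20 mg/kg held 9.37, 2.68, 2.57, 16.7 and 7.68 TPM of *Upf3b*. The lowest, median and highest values with Control-GalNAc-ASO at 20 mg/kg were 85.3, 113 and 135 TPM, so the groups did not overlap. The difference was -3.87 (SE 0.40, limma adjusted p = 1.59e-05). At 10 mg/kg *Upf3b* was at 5.97, 20.7, 53.7, 3.95 and 23.3 TPM, which overlapped the 66.9, 27.1, 58.5 and 78.7 TPM of the mice given Control-GalNAc-ASO at 15 mg/kg. That difference was -1.73 (SE 0.61) and was not called (limma adjusted p = 0.211). Against DPBS, whose *Upf3b* ran from 33.8 to 136 TPM, the difference at 10 mg/kg was -2.57 (SE 0.45) and was called (limma adjusted p = 0.00455), with overlapping ranges. The 15 mg/kg control itself differed from DPBS by -0.75 (SE 0.35, limma adjusted p = 0.691).

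The sequences bear on whether the ASO itself could pair with the genes followed. The ASO sequence was read from the study's table, and the window of annotated *Rdh16* transcripts (GENCODE M21) that fits it best is shown beside its full complement, with matching bases in capitals.

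Upf3b-GalNAc-ASO: ggatatagatgtaacg
complement, as found in *Upf3b*: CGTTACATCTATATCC
best window in *Rdh16*: CaTTAttTCTgTATCC

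Of 16 bases, 12 matched in *Rdh16*, leaving 4 mismatches, and 5.49% of the 55341 annotated genes had a window with as few. The longest unbroken complementary run in *Rdh16* was 7 bases, a length that 41.35% of genes reached. The 8 other retinol genes had 5 or 6 mismatches at best, and their longest runs were 6 to 8 bases. Introns were not searched.

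*Rdh16*, which encodes a microsomal dehydrogenase that oxidises retinol, was the retinol gene with the largest difference. With *Upf3b*-GalNAc-ASO at 20 mg/kg the 5 mice held 21.6, 6.15, 7.67, 14.2 and 15.0 TPM. With Control-GalNAc-ASO at the same dose the lowest, median and highest of 6 mice were 62.8, 114 and 150.5 TPM. Every mouse given *Upf3b*-GalNAc-ASO was thus below every control mouse, with a gap between 21.6 and 62.8 TPM. The means were 12.9 ± 6.23 TPM (SD, n = 5) and 109 ± 34.5 TPM (SD, n = 6), so that 11.8% of the control level remained. The difference was -2.97 (SE 0.33, limma adjusted p = 4.13e-05), or 7.84-fold, with a 95% confidence interval of 4.87 to 12.6-fold. Its rank by p was 3 of the 9376 genes tested, of which 236 were called (2.52%), 87 higher and 149 lower (1.59% lower). When the mice were rescaled by TMM factors, 147 were called higher and 129 lower, and the median difference of all genes moved from -0.12 to -0.03, while *Rdh16* stayed called.

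**Figure D1:**
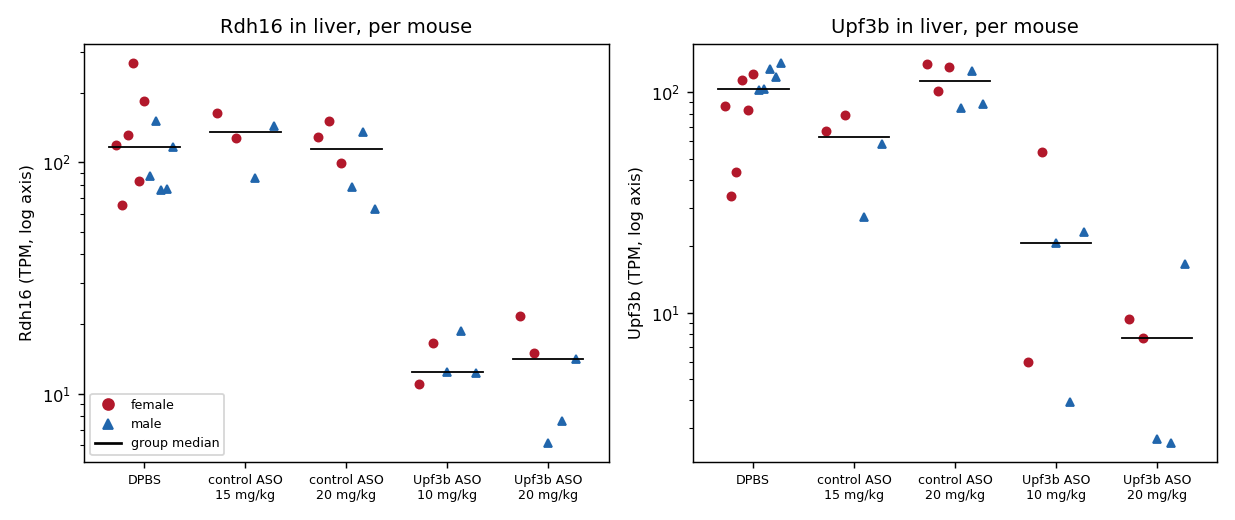
*Rdh16* (left) and *Upf3b* (right) in TPM on log axes, 1 point per mouse in the 5 groups, circles for females and triangles for males, with lines at the group medians. All 10 mice given *Upf3b*-GalNAc-ASO lie between 6.15 and 21.6 TPM of *Rdh16*, below the other 21 mice, and *Upf3b* itself overlaps between the 10 mg/kg group and the controls. The 10 mg/kg mice led to the choice of *Rdh16*, and how many of all genes separate in this way was not counted.

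*Rdh16* was also lower than in the DPBS-treated mice. Their *Rdh16* ran from 65.4 TPM through a median of 116 TPM to 269 TPM, above all mice given *Upf3b*-GalNAc-ASO at 20 mg/kg. The difference of these 2 groups was -3.07 (SE 0.32, limma adjusted p = 3.19e-06); of the 9078 genes tested, 103 were called (1.13%), and in 43 (0.474%) every treated mouse was below every DPBS-treated mouse. Both comparisons use the same 5 treated mice. *Rdh16* was not called between Control-GalNAc-ASO and DPBS. The difference was -0.09 (SE 0.26, 95% confidence interval -0.64 to 0.45) at 20 mg/kg and 0.18 (SE 0.31, 95% confidence interval -0.45 to 0.82) at 15 mg/kg. Neither control comparison called any gene with limma (0.0% of 9140 and 0.0% of 8971), although 905 and 644 genes had an unadjusted p under 0.05.

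In the group that led to the choice of these genes, *Rdh16* was at 11.1, 12.4, 16.7, 18.8 and 12.3 TPM with *Upf3b*-GalNAc-ASO at 10 mg/kg, against 164, 85.2, 143 and 128 TPM with Control-GalNAc-ASO at 15 mg/kg. The difference was -3.08 (SE 0.35) against this control and -2.89 (SE 0.31) against DPBS. Median *Rdh16* was 12.4 TPM at 10 mg/kg and 14.2 TPM at 20 mg/kg, where the mice ranged more widely, and *Upf3b* itself had a median of 20.7 TPM at 10 mg/kg and 7.68 TPM at 20 mg/kg. The mouse with the most *Upf3b* of the 10 mg/kg group, at 53.7 TPM, held 16.7 TPM of *Rdh16*, inside the range of its group; this was the library with the fewest reads, and the value rests on 17 reads.

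Mean *Rdh16* was higher in females than in males in the DPBS and both control groups, with overlapping ranges. With *Upf3b*-GalNAc-ASO at 20 mg/kg the 2 females, at 15.0 and 21.6 TPM, were above the 3 males, at 6.15 to 14.2 TPM. This order was not seen with *Upf3b*-GalNAc-ASO at 10 mg/kg. There the means were 13.9 TPM in 2 females and 14.5 TPM in 3 males, with overlapping ranges. In DPBS-treated mice the means were 142 ± 74.7 TPM in 6 females and 101 ± 31.8 TPM in 5 males, a male minus female difference of -0.38 (SE 0.34, limma adjusted p = 0.711). The interaction of treatment and sex at 20 mg/kg was -0.46 (SE 0.68, limma adjusted p = 0.999) for *Rdh16*, with a 95% confidence interval of -1.87 to 0.96. A sex difference of the fall of up to 3.66-fold lies within this interval. None of the 8 retinol genes tested was called for this interaction (0.0107% of 9376 genes were, the single gene *Hamp2*, a hepcidin gene, at an adjusted p of 0.029, named after its values were seen; the call was lost in 9 of 11 fits that left out 1 mouse).

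*Rdh16* lies on chromosome 10 from 127801152 to 127846565 on the plus strand (GENCODE M21, GRCm38), inside a cluster of related dehydrogenase genes. *Rdh9* ends 8.5 kb before it, at 127792697, and *Rdh7* starts 37.5 kb beyond it on the minus strand, from 127884028 to 127888817. *Rdh1* and the 17-beta-hydroxysteroid dehydrogenase gene *Hsd17b6* are part of the same cluster. The other genes followed lie elsewhere, *Rdh10* on chromosome 1, *Adh1* and *Lrat* on chromosome 3, *Rdh11* on chromosome 12, and *Aldh1a1* and *Rbp4* on chromosome 19.

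The promoters of *Rdh16* and *Rdh9*, from 250 bases before to 50 bases after the annotated start (RefSeq, GRCm38.p6), are shown because the 2 genes are neighbours with related sequence but different values after treatment. The longest run that both share is in capitals.

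Rdh16, chr10:127800903-127801202, plus strand: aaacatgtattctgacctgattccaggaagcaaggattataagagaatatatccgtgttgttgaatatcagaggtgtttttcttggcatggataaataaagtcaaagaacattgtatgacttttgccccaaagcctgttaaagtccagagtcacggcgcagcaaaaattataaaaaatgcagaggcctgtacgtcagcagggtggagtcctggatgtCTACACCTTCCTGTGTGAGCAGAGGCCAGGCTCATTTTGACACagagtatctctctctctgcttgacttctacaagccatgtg
Rdh9, chr10:127776155-127776454, plus strand: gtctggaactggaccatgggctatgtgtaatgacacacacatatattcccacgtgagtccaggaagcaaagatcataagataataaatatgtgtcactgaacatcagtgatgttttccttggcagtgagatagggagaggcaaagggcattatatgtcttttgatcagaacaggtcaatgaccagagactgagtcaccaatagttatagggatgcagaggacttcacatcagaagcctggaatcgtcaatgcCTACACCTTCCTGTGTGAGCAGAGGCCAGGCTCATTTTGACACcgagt

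The shared run is 43 bases long and, of the 32851 promoters in the table, only that of *Rdh9* held it beside that of *Rdh16*. Relative to the annotated start it runs from -33 to 9 in *Rdh16* and from 2 to 44 in *Rdh9*. In *Rdh9* it thus lies wholly after the start, and whether it acts as a promoter element was not tested. Aligned end to end, the *Rdh16* and *Rdh9* promoters were identical in 61.4% of columns, and *Rdh16* and each of the 2 annotated *Rdh7* promoters in 48.9%. Of the 9 genes, 8 had an entry in this table; the one without was *Rdh10*.

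None of the tested neighbours of *Rdh16* was called at 20 mg/kg, where 2.52% of all genes were. *Rdh9* is a dehydrogenase acting on retinol and steroids. With *Upf3b*-GalNAc-ASO at 20 mg/kg it was at 18.8, 24.8, 10.4, 43.5 and 67.3 TPM. With Control-GalNAc-ASO at 20 mg/kg it ran from 19.8 TPM through a median of 41.9 TPM to 99.4 TPM, so the groups overlapped. The difference was -0.46 (SE 0.42, limma adjusted p = 0.585).

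*Rdh7*, another retinol and steroid dehydrogenase of the cluster, was at 798, 374, 669, 545 and 647 TPM with *Upf3b*-GalNAc-ASO at 20 mg/kg and at 406 to 1716 TPM with Control-GalNAc-ASO. The lowest treated mouse was below the control range and the other 4 were within it. The difference was -0.39 (SE 0.32, 95% confidence interval -1.06 to 0.29, limma adjusted p = 0.553). Among the 14 genes tested within 250 kb on either side of *Rdh16*, 0 were called by limma, beside 2.52% of all 9376 genes. At that share few or no calls among 14 genes would be found anyway, so nothing is read from this count. Their differences ran from -0.76 for *Gpr182* to 1.136 for *Stat6*, and the lowest limma adjusted p was 0.112.

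**Figure D2:**
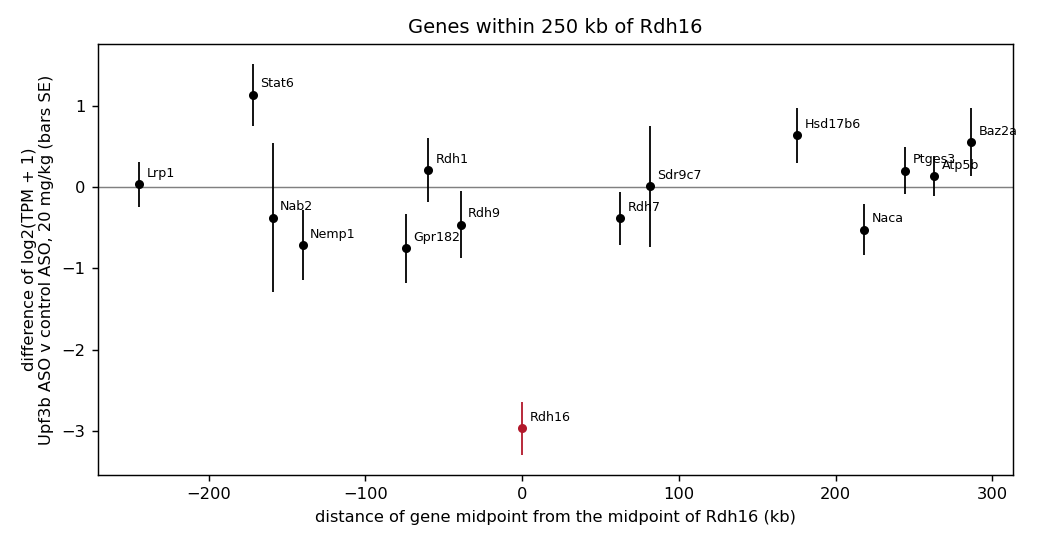
Difference of log2(TPM + 1) between *Upf3b*-GalNAc-ASO and Control-GalNAc-ASO at 20 mg/kg, with SE bars, against the distance in kb from the midpoint of *Rdh16*, for the genes tested within 250 kb of it. *Rdh16* (red, called) is at -2.97 and the other 14 genes lie between -0.76 and 1.136. None of these 14 was called, beside 2.52% of all genes tested.

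Related sequence limits how well these genes can be separated. Cut into stretches of 31 bases, 22.45% of the annotated *Rdh16* transcript sequence also occurs in transcripts of other genes, most often *Rdh9*, and 10.14% of the last 500 bases does. For *Rdh9* the share is 71.92%, mostly with the overlapping gene model *Rdh16f1*, so *Rdh9* values are uncertain. The share is 20.28% for *Rdh7*, 5.7% for *Aldh1a1*, 1.98% for *Adh1*, and under 0.5% for *Rdh10*, *Rdh11*, *Rbp4* and *Lrat*.

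*Rdh11*, a microsomal enzyme that uses NADPH to reduce retinal, was the other retinol gene called at 20 mg/kg. The treated mice were at 56.4, 17.1, 35.9, 24.4 and 32.2 TPM. The control mice ran from 59.4 TPM through a median of 77.9 TPM to 106 TPM, so the highest treated mouse lay just under the lowest control mouse. The means were 33.2 ± 14.9 TPM (SD, n = 5) and 79.2 ± 17.6 TPM (SD, n = 6). The difference was -1.25 (SE 0.30, limma adjusted p = 0.03), a 2.38-fold fall with a 95% confidence interval of 1.54 to 3.66-fold.

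This call was close to the threshold. Leaving out Control-GalNAc-ASO replicate 2, 3, 5 or 6 or *Upf3b*-GalNAc-ASO replicate 6, each alone, raised the adjusted p of *Rdh11* to between 0.0551 and 0.0805, with the difference between -1.27 and -1.15. Against DPBS the *Rdh11* difference at 20 mg/kg was -1.04 (SE 0.37) and was not called (limma adjusted p = 0.208), and the groups overlapped, with 5 of the 11 DPBS-treated mice below the highest treated mouse. The lowest of these, DPBS replicate 7, held 22.8 TPM from 27 reads in one of the shallowest libraries. Without that mouse the adjusted p was 0.0337. With *Upf3b*-GalNAc-ASO at 10 mg/kg *Rdh11* was at 40.6, 57.7, 53.9, 48.4 and 43.8 TPM, below the 117, 113, 66.2 and 88.0 TPM of its control mice, with a difference of -0.93 (SE 0.32). In this contrast 250 of 9166 genes, *Rdh16* and *Rdh10* among them, were likewise lower without overlap. The 10 mg/kg values are a description and do not back the call at 20 mg/kg.

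In all, 2 of the 8 retinol genes tested at 20 mg/kg, *Rdh16* and *Rdh11*, were called, beside 2.52% of all genes, and both were lower. Their ranges did not overlap with the control, as in 171 of all 9376 genes in that direction (1.82%). The median difference of the 8 genes was -0.42, beside -0.12 for all genes tested. All 8 differences were below 0, as were 56.8% of those of all genes. *Rdh16* is part of the count, the median and the shared direction. Its fall with the same ASO at the lower dose led to the choice of genes, so its call could be foreseen. These figures are therefore not an independent test of the set. Apart from *Rdh16*, only *Rdh11* was called (limma adjusted p = 0.03), and that call was lost in 5 of the 11 fits that each left out a mouse.

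**Figure D3:**
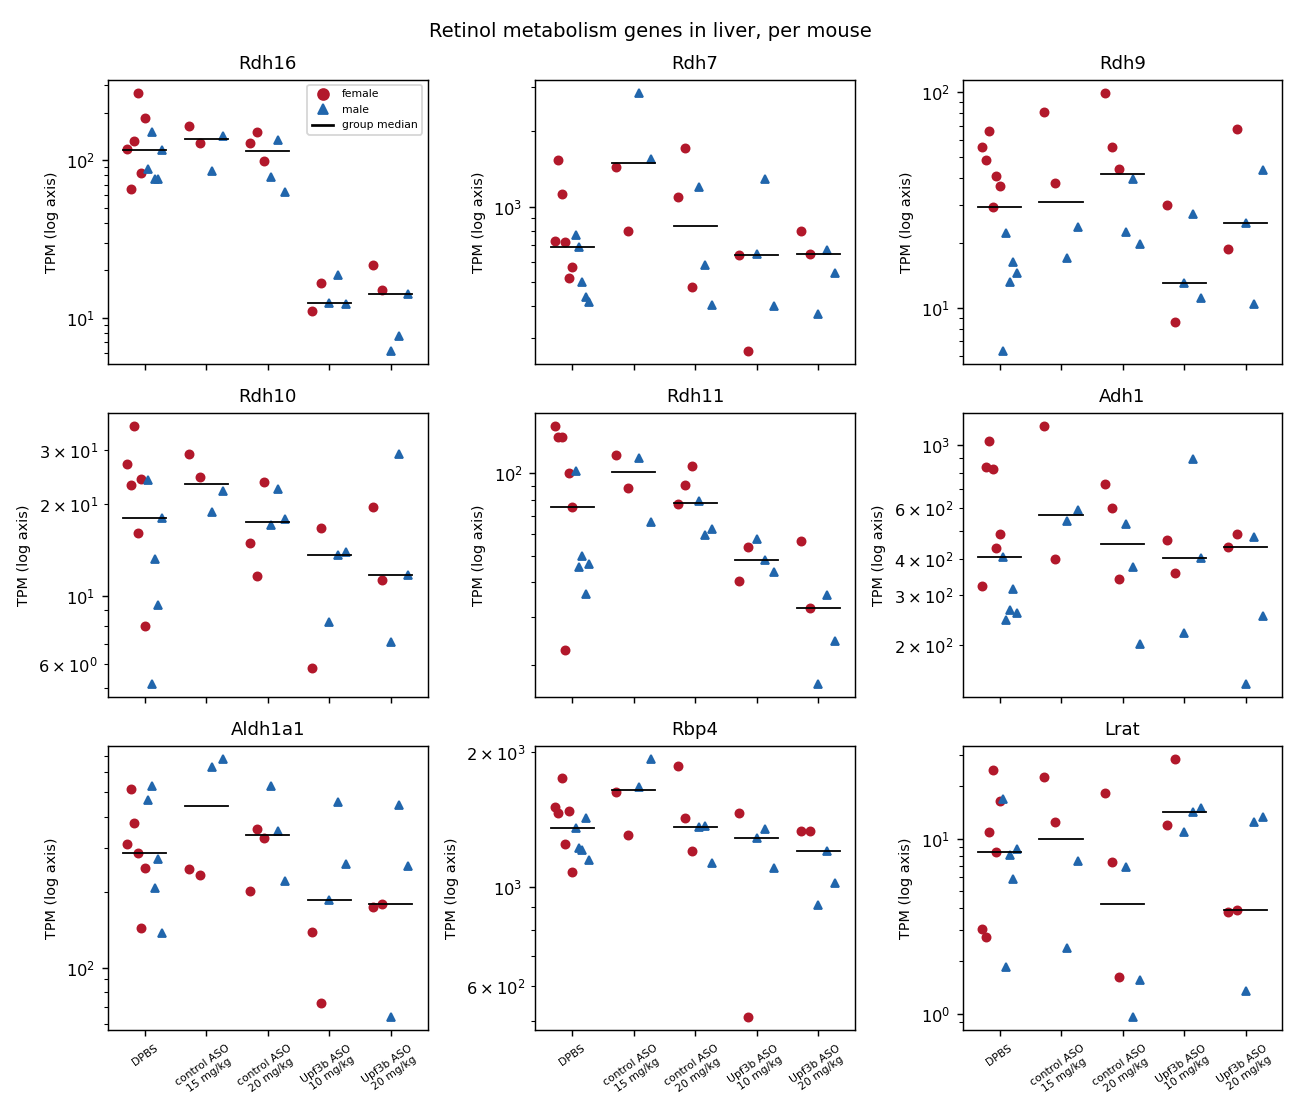
TPM of the 9 retinol genes on log axes, 1 point per mouse in the 5 groups, circles for females and triangles for males, with lines at group medians. Among these 9 panels, only that of *Rdh16* shows both *Upf3b*-GalNAc-ASO groups below all other mice. The fall of *Rdh16* in the lower-dose group led to the choice of genes, so this separation is a description. How many of all genes separate in this way was not counted.

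*Rdh10*, a retinol dehydrogenase known for its role in embryonic retinoic acid synthesis, was at 19.6, 7.10, 29.0, 11.7 and 11.3 TPM with *Upf3b*-GalNAc-ASO and at 11.6 to 23.6 TPM with Control-GalNAc-ASO at 20 mg/kg. The treated range enclosed the control range. The difference was -0.29 (SE 0.42, 95% confidence interval -1.17 to 0.58, limma adjusted p = 0.745).

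*Adh1*, the cytosolic alcohol dehydrogenase that oxidises ethanol and retinol, was at 441, 146, 475, 252 and 489 TPM with *Upf3b*-GalNAc-ASO and at 202 to 729 TPM with Control-GalNAc-ASO at 20 mg/kg. The groups overlapped, with a difference of -0.31 (SE 0.32, 95% confidence interval -0.97 to 0.36, limma adjusted p = 0.644).

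*Aldh1a1*, which oxidises retinal to retinoic acid, was at 175, 63.6, 446, 254 and 180 TPM with *Upf3b*-GalNAc-ASO and at 203 to 530 TPM with Control-GalNAc-ASO at 20 mg/kg. Among the 5 treated mice, 3 were below all 6 control mice and the other 2 were within their range. The difference was -0.77 (SE 0.39, 95% confidence interval -1.59 to 0.04, limma adjusted p = 0.294), an interval that reaches a fall of 3.00-fold.

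*Rbp4*, the plasma carrier of retinol made by hepatocytes, varied least. It was at 1330, 909, 1203, 1022 and 1334 TPM with *Upf3b*-GalNAc-ASO and at 1128 to 1860 TPM with Control-GalNAc-ASO at 20 mg/kg, a difference of -0.23 (SE 0.22, 95% confidence interval -0.69 to 0.22, limma adjusted p = 0.602). Its coefficient of variation was 14.4% over the 11 DPBS-treated mice, whereas that of the other 8 genes was between 43.6% and 71.7%. With *Upf3b*-GalNAc-ASO at 10 mg/kg it was 32.95%, above the 14.38% of *Rdh11* and the 23.28% of *Rdh16*.

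*Lrat*, which esterifies retinol for storage and is known from hepatic stellate cells, was under the TPM minimum at 20 mg/kg and was tested alone. It was at 3.83, 1.34, 12.4, 13.2 and 3.90 TPM with *Upf3b*-GalNAc-ASO and from 0.957 TPM through a median of 4.26 TPM to 18.2 TPM with Control-GalNAc-ASO. The lowest values rest on 3 to 7 reads. The difference of mean log2(TPM + 1) was 0.34, with SDs of 1.10 and 1.29, and was not larger than the spread between mice (exact permutation test within sex, two-sided, p = 0.65; the smallest p that the 200 arrangements can give is 0.005). The 10 stellate cell markers listed were all detected, and their summed level was 134 to 210 TPM with *Upf3b*-GalNAc-ASO and 140 to 295 TPM with Control-GalNAc-ASO at 20 mg/kg. Of these, 5 passed the minimum and 0 of these 5 were called, beside 2.52% of all genes. Of their differences 4 were below 0 and 1 above, beside 56.8% of all genes below 0. *Col3a1* was close to the threshold, at -2.055 (SE 0.56, limma adjusted p = 0.0536), with medians of 2.13 and 11.46 TPM.

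At 10 mg/kg, given as a description because these mice led to the choice of genes, 8 of the 9 differences from Control-GalNAc-ASO at 15 mg/kg were below 0. So were 51.6% of the differences of all genes tested. Those of the retinol genes not given above were -1.50 for *Rdh7*, -1.24 for *Aldh1a1*, -1.02 for *Rdh10*, -0.95 for *Rdh9*, -0.63 for *Rbp4* and -0.56 for *Adh1*, and 0.83 for *Lrat*. The call rule was met by 1 of the 9 genes, *Rdh16*, and by 0.295% of the 9166 genes tested, and against DPBS by 1 of 9 and by 0.376% of 9032 genes. As the fall of *Rdh16* in these mice led to the choice of genes, nothing is read from these counts.

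The control group of this contrast was also compared with DPBS. All 9 genes were higher on average with Control-GalNAc-ASO at 15 mg/kg than with DPBS, by 0.18 to 1.16, although none was called. Over all 8971 genes tested the median difference was 0.07, and 44.2% of the differences were below 0. *Rdh7* was at 1438, 2845, 1543 and 801 TPM in these 4 control mice, against 417 to 1540 TPM with a median of 692 TPM in DPBS-treated mice, a difference of 1.16 (SE 0.32, limma adjusted p = 0.691). *Rdh7* with *Upf3b*-GalNAc-ASO at 10 mg/kg, at 642, 644, 265, 1284 and 400 TPM, differed by -0.24 (SE 0.33) from DPBS and by -1.50 (SE 0.39) from Control-GalNAc-ASO. *Adh1* was 0.55 (SE 0.30, limma adjusted p = 0.717) higher in the 15 mg/kg control than in DPBS. At 20 mg/kg the control differences from DPBS ran from -0.77 for *Lrat* to 0.68 for *Rdh9* (SE 0.29, limma adjusted p = 0.474), beside a median of 0.15 over all genes.

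**Figure D4:**
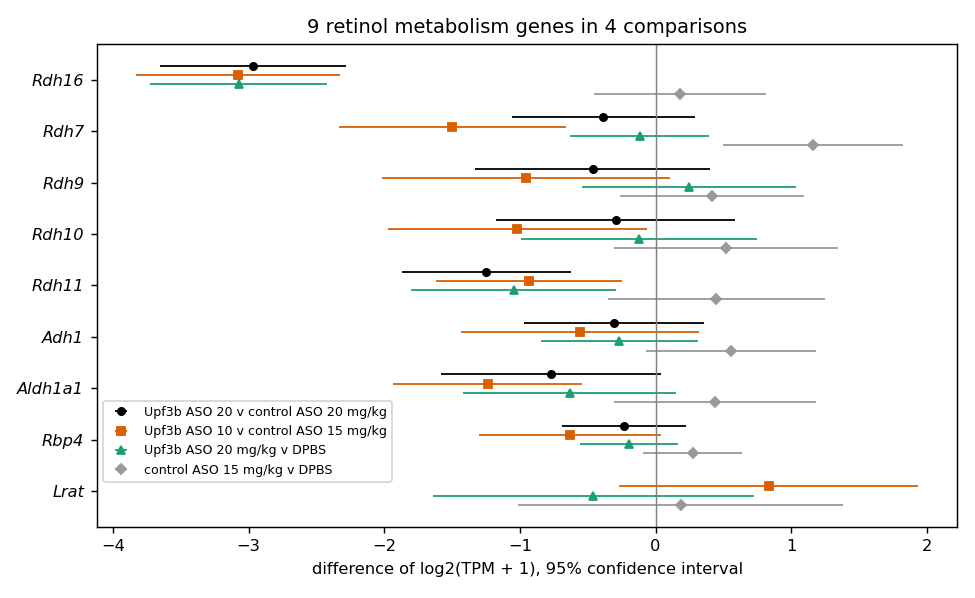
Differences of log2(TPM + 1) with 95% confidence intervals for the 9 retinol genes in 4 comparisons (*Lrat* was not tested at 20 mg/kg against the control). For *Rdh16* the 3 comparisons of *Upf3b*-GalNAc-ASO lie between -3.08 and -2.97, and for *Rdh7* the grey point shows the higher level of the 15 mg/kg control, 1.16 above DPBS.

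The other genes of retinoid metabolism were read from a list of 57, of which 55 symbols were in the data; *Rdh16f1* and *Rdh16f2* were not found by symbol. At 20 mg/kg 37 passed the minimum and 0 were called by limma, beside 2.52% of all 9376 genes tested. Differences were above 0 for 18 and below 0 for 19, with a median of -0.01, beside 56.8% of all genes below 0. An unadjusted p under 0.05 was found for 6 of the 37, beside 18.68% of all genes. Both counts lie near the shares over all genes, so nothing is read from them about the list. By role, 8 other retinol dehydrogenases and reductases ran from -0.58 to 1.28, 3 alcohol dehydrogenases from -0.33 to -0.15, 5 genes of retinal oxidation from -1.16 to 0.04, 6 genes of ester turnover from -1.04 to 1.27, 4 receptors from 0.05 to 1.78 and 3 genes known to respond to retinoic acid from -0.79 to 0.47.

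The 4 of these with the largest differences at 20 mg/kg were named by rule. *Rxrg*, a retinoid X receptor gene, was at 10.9, 3.26, 14.3, 11.7 and 15.6 TPM with *Upf3b*-GalNAc-ASO against 0 to 13.0 TPM with Control-GalNAc-ASO, a difference of 1.78 (SE 0.69, limma adjusted p = 0.173). *Rdh5*, a dehydrogenase of the visual cycle, differed by 1.28 (SE 0.65, limma adjusted p = 0.29) and *Dgat1*, which can esterify retinol, by 1.27 (SE 0.39, limma adjusted p = 0.0812). *Aldh8a1*, an aldehyde dehydrogenase active on 9-cis-retinal, differed by -1.16 (SE 0.36, limma adjusted p = 0.088), with 59.5, 17.5, 93.5, 51.8 and 87.2 TPM against 82.2 to 175 TPM. At 10 mg/kg 0 of 38 genes of the list were called, beside 0.295% of all 9166 genes, and *Aldh8a1* differed by -0.90.

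**Figure D5:**
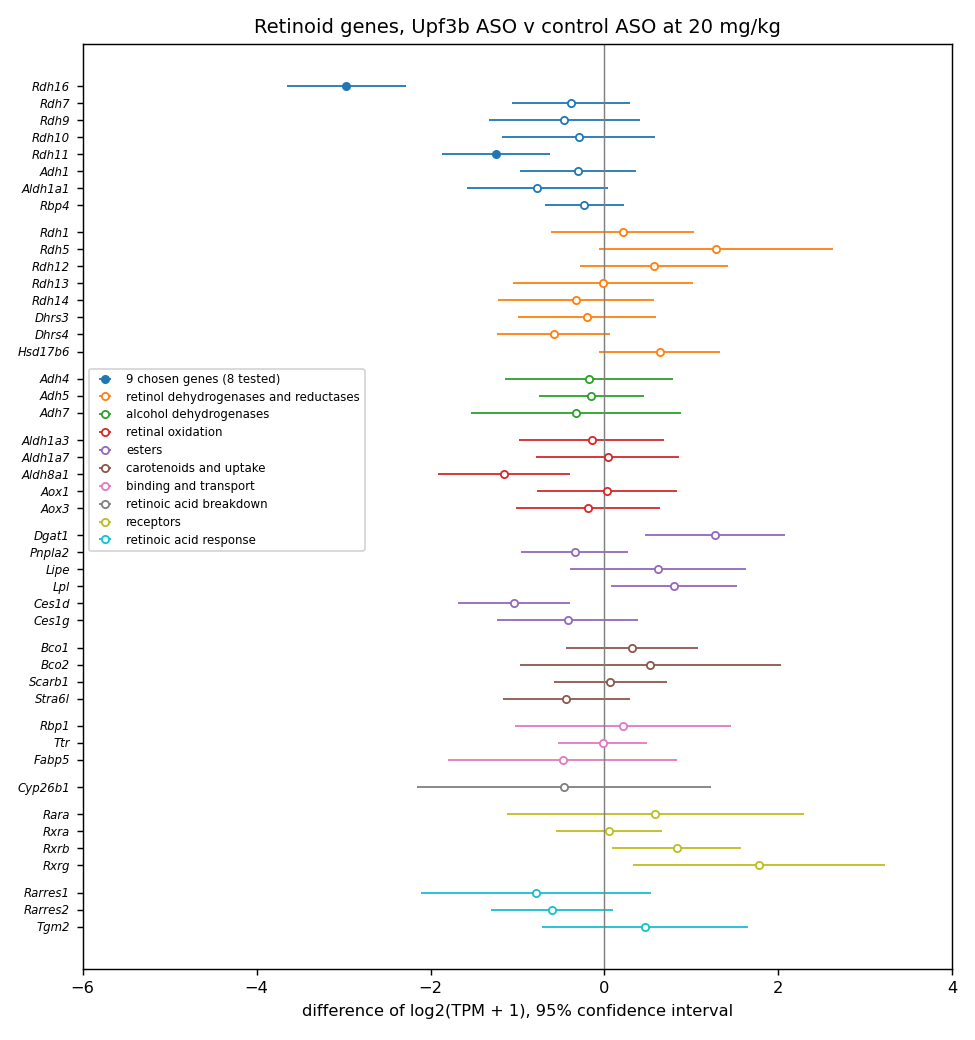
Differences of log2(TPM + 1) between *Upf3b*-GalNAc-ASO and Control-GalNAc-ASO at 20 mg/kg with 95% confidence intervals, for the 8 retinol genes tested (top, blue) and 37 other retinoid genes coloured by role; filled points are called. *Rdh16* at -2.97 and *Rdh11* at -1.25 are the 2 filled points.

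Of the 9 genes, 1 was called between the sexes in DPBS-treated mice. *Rdh9* was at 55.5, 48.6, 65.9, 29.4, 40.9 and 36.8 TPM in the 6 females and at 6.32, 22.2, 13.2, 16.3 and 14.5 TPM in the 5 males, with no overlap. The male minus female difference was -1.65 (SE 0.36, limma adjusted p = 0.0196), or 3.14-fold lower in males; 127 of 8998 genes were called (1.41%). The call was lost on leaving out any of 4 mice. Without DPBS replicate 1, 3, 4 or 11 the adjusted p was 0.0522, 0.0546, 0.0602 or 0.0507, in that order. The same order held in mice not used for this test, with females at 37.9 and 80.5 TPM and males at 17.0 and 23.8 TPM in the 15 mg/kg control, and females at 44.1 to 99.4 TPM and males at 19.8 to 39.6 TPM in the 20 mg/kg control. In both *Upf3b*-GalNAc-ASO groups the sexes overlapped for *Rdh9*, and its interaction of treatment and sex at 20 mg/kg was 0.59 (SE 0.86, limma adjusted p = 0.999).

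*Adh1* had the next largest sex difference, -1.04 (SE 0.29, limma adjusted p = 0.0966), with means of 657 ± 279 TPM in females and 298 ± 66.4 TPM in males. *Rdh7* differed by -0.56 (SE 0.28, adjusted p = 0.537). All 9 differences were below 0, from -1.65 to -0.03, as were 47.7% of those of all genes, whose median was 0.03. Whether this shared direction exceeds chance was not tested. Of the 38 other retinoid genes tested, 3 were called by sex, beside 1.41% of all genes. *Aox3*, an aldehyde oxidase gene, was 2.45 (SE 0.31, adjusted p = 9.25e-05) higher in males. *Lpl*, encoding lipoprotein lipase, was 1.24 (SE 0.30, adjusted p = 0.0431) higher in males, and *Hsd17b6* was 2.06 lower in males (difference -2.06, SE 0.41, adjusted p = 0.00966). The call of *Lpl* was lost in 9 of the 11 fits that left out 1 mouse and with no minimum on TPM. The calls of *Lpl* and *Hsd17b6* were both lost without DPBS replicates 6 and 7.

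Markers of liver cells were read beside these results, in the 20 mg/kg comparison, where 2.52% of all genes were called. All 6 hepatocyte markers were detected in every group, and their summed level was 10060 to 24540 TPM with *Upf3b*-GalNAc-ASO and 10290 to 21230 TPM with Control-GalNAc-ASO at 20 mg/kg, with 0 of 6 called. The 8 pericentral hepatocyte markers summed to 2690 to 3358 TPM with *Upf3b*-GalNAc-ASO and 2998 to 7098 TPM with Control-GalNAc-ASO, and 3 of the 6 tested were called lower: *Slc1a2* by -2.37, *Oat* by -2.37 and *Glul* by -1.41. *Cyp2e1*, with medians of 2217 and 3623 TPM, made up most of the pericentral sums and was not called (difference -0.64, limma adjusted p = 0.212). The 3 called markers fell beside *Rdh16* and *Rdh11*, and their part in those results was not tested. The 6 periportal markers summed to 5828 to 11370 and 3795 to 11550 TPM, with 0 of 5 called. The 6 Kupffer cell markers summed to 317 to 669 and 227 to 786 TPM with 0 of 6 called, and the 4 cholangiocyte markers to 1.01 to 18.2 and 1.68 to 15.3 TPM with 0 of 1 called. Of the 6 endothelial markers, with sums of 1517 to 2249 and 642 to 1708 TPM, *Pecam1* was called, 1.27 higher, and its median of 1695 against 667.5 TPM makes up most of these sums. The other 5 had differences from -0.76 for *Ptprb* to -0.08 for *Stab2*, none called, and the median of the 6 was -0.53.

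Across the 31 mice, after removing group and sex means, the genes whose log2(TPM + 1) followed *Rdh16* most closely were *Etnppl* (Pearson r = 0.719), *Ccdc50* (0.702), *Terf2* (0.686), *Tcirg1* (0.682) and *Lmo7* (0.673), of 9839 genes compared. These are descriptions over mice that share library depth, with no test. The other 8 retinol genes had r between -0.34 for *Rdh11* and 0.31 for *Lrat* with *Rdh16*. None of the 5 closest genes was called at 20 mg/kg, where their differences ran from -1.21 for *Lmo7* to 0.64 for *Etnppl*.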

How the data were processed

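Liver RNA of 31 mice was sequenced by the authors, 1 library per mouse, and deposited as TPM per gene symbol, estimated with Salmon 0.7.2 against Ensembl 81 transcripts of GRCm38.p4 after demultiplexing with bcl2fastq 2.17.1.14. The labels name a 3' end kit and the study's methods a whole-transcript kit. In each library 70.2% to 81.6% of the values were whole multiples of 1 step (tolerance 0.02), too few for a count test. Levels were not compared between genes, except in the sums over cell markers, where the genes with the highest TPM weigh most. Of 31198 rows, 26 with symbols turned into dates were left out.

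Groups and sexes were taken from the labels. Values were tested on log2(TPM + 1) with limma 3.58.1 (R 4.3.3; trended and robust variance, sex as covariate), for genes whose median reached 5 TPM in either group, with Benjamini-Hochberg adjustment over all genes tested. A fold change on this scale understates the change of low genes. *Lrat* was tested at 20 mg/kg by exact permutation within sex. The code was tested on simulated data. Each p-value weighs a difference against the spread between mice and is not itself a measure of that spread. Reads per mouse were derived from the steps, and the floor covers counting error only.

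The members and lists were chosen with earlier results of these data known. Named genes were all members, the 4 other retinoid genes with the largest differences at 20 mg/kg, those called, and the 5 genes most like *Rdh16*. Alternatives were pseudocounts of 0.5 and 5, a minimum of 20 TPM, no minimum, TMM scaling (trimmed mean of M-values), array weights, no sex term, a replicate block, leaving out each mouse and, chosen after seeing the data, leaving out DPBS replicates 6 and 7.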

Additional observations from a re-analysis of the deposited data

Results flagged for a closer look

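Of 68 sets of 4 to 6 mice tested, 7 held 1 mouse far from the others by Dixon's ratio. Chance flags about 1 set in 20 if values are normally distributed. The ratio was taken on TPM without logs, where that rate need not hold, and all 7 mice were the highest of their set. The 7 flags are therefore not read as an excess. *Lrat* was at 18.2 TPM in Control-GalNAc-ASO 20 mg/kg replicate 1 and at 28.4 TPM in *Upf3b*-GalNAc-ASO 10 mg/kg replicate 3, both shallow libraries. *Rxrg* was at 11.7 TPM in Control-GalNAc-ASO 15 mg/kg replicate 4 and at 13.0 TPM in Control-GalNAc-ASO 20 mg/kg replicate 5. *Dgat1* was at 30.5 TPM in the same replicate 5 of the 20 mg/kg control. *Aox3* was at 837.8 TPM in Control-GalNAc-ASO 20 mg/kg replicate 6 and at 773.5 TPM in *Upf3b*-GalNAc-ASO 20 mg/kg replicate 5.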

How the results depend on the processing

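At 20 mg/kg against Control-GalNAc-ASO, *Rdh16* was called under each alternative run, with differences from -3.10 to -2.79 on leaving out 1 mouse and from -3.04 to -2.62 otherwise. The count of retinol genes called fell from 2 to 1 with no minimum (*Rdh11* adjusted p = 0.0511) and with the replicate block, and was 1 to 2 on leaving out 1 mouse; that of other retinoid genes was 0 to 1. The count of all genes called went from 236 to 133 with no minimum, 45 with the block and 70 to 270 on leaving out 1 mouse (70 without Control-GalNAc-ASO replicate 3). The difference of *Lrat* was 0.05 to 0.72 on leaving out 1 mouse.

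At 10 mg/kg against Control-GalNAc-ASO, 27 genes became 17 with a pseudocount of 0.5, 56 with 5, 388 with array weights, 10 without the sex term, 95 with the block and 2 to 431 on leaving out 1 mouse (2 without Control-GalNAc-ASO replicate 3, 431 without *Upf3b*-GalNAc-ASO replicate 1). Retinol genes called were 3 with array weights and 1 to 3 on leaving out 1 mouse, and other retinoid genes 3 and 0 to 2; these mice led to the choice of genes, so nothing is read from the counts. For *Upf3b*-GalNAc-ASO at 20 mg/kg against DPBS, 103 genes became 159 with array weights, 42 with the block and 56 to 119 on leaving out 1 mouse, and 1 retinol gene became 2 without DPBS replicates 6 and 7 (1 to 2 on leaving out 1 mouse). At 10 mg/kg against DPBS, 34 genes became 62 with array weights, 9 with the block and 24 to 39 on leaving out 1 mouse, and 1 other retinoid gene was called with array weights.

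For Control-GalNAc-ASO at 20 mg/kg against DPBS, 1 gene was called with a pseudocount of 5, 9 with array weights and 0 to 7 on leaving out 1 mouse. The small *Rdh16* difference there was -0.214 to 0.014 on leaving out 1 mouse and turned from -0.09 to 0.055 with the block, 0.014 without Control-GalNAc-ASO replicate 6, 0.013 without DPBS replicate 7 and 0.037 without DPBS replicates 6 and 7. At 15 mg/kg against DPBS, 2 genes were called with no minimum, 2 with the block, 0 to 1 on leaving out 1 mouse and 261 with array weights, among them 2 retinol genes (*Rdh7* and *Adh1*) and 1 other retinoid gene. Between sexes, 127 genes became 212 with array weights and 86 to 134 on leaving out 1 mouse, retinol genes 0 to 1, and the 3 other retinoid genes 1 without DPBS replicates 6 and 7 and 2 to 3 on leaving out 1 mouse. For treatment by sex, 1 gene became 0 with a pseudocount of 0.5, 3 with 5 and 0 to 1 on leaving out 1 mouse, and *Rdh11* was -0.72 to 0.071, turning from -0.33 without *Upf3b*-GalNAc-ASO replicate 1. The causes were not tested.

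Replicate numbers shared between groups did not pair the mice: of the 5 same-numbered pairs at 20 mg/kg, 2 were of the same sex, and their deviations correlated at -0.275 to 0.101. The replicate block left 45 genes called. Depth limits *Lrat* most, with as few as 3 reads in a mouse, and *Rdh9* shares most of its sequence with other genes.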
